A study of Mus musculus with 6 samples.

Results

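The genes described here take up, store, sense and export iron and heme. They were 10 genes chosen by name: Tfrc, Slc40a1, Slc11a2, Fth1, Aco1, Ireb2, Trf, Hfe, Flvcr1 and Flvcr2. Their measurements were every probe set (a group of short probes that reads 1 transcript) that the platform annotation ties to 1 of these genes alone, together with the array's 3 control probe sets for the mouse transferrin receptor. This gave 9 of the 18193 genes measured, with 23 of the 45040 probe sets tested. Trf, the gene of the plasma iron carrier transferrin, had no probe set of its own, since its probe set is also tied to Srprb. The genes were chosen with results of this same comparison in view, so their values are a description and support nothing by themselves.

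Left ventricular RNA, taken at the apex, was profiled in 6 females of a mixed line (C57B6, B6129), with 1 Affymetrix array per mouse. In the 3 PTIP KO mice, 1 copy of Paxip1, which encodes PTIP, was floxed and the other null, and they had a transgene in which the cardiac alpha myosin heavy chain driver expresses a fusion of Cre recombinase with a modified estrogen receptor. The 3 PTIP+ mice, their littermates, had 1 floxed and 1 wild-type copy, with no Cre transgene mentioned for this group. Mice of both groups received tamoxifen (20 mg/kg, intraperitoneal) at 8 weeks of age, and the labels give both 5 days of treatment and collection 5 days after injection. The Cre driver acts in cardiomyocytes, so other cells of the apex keep their floxed allele. Beside it, these cells have a null copy in PTIP KO and a wild-type copy in PTIP+, so the groups differ in them too. In such bulk tissue, fewer cells of a type and less RNA per cell cannot be told apart.

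Cells take up iron when transferrin binds the transferrin receptor (Tfrc) and the complex is drawn into endosomes, where Slc11a2 carries the freed iron into the cytosol. Ferritin, of which Fth1 is the heavy chain, stores iron, and ferroportin (Slc40a1) is the known exporter of iron from cells. The iron regulatory proteins, encoded by Aco1 and Ireb2, bind stem-loops called iron-responsive elements: in the tail of the Tfrc transcript this protects it from decay, while at the start of the Fth1 and Slc40a1 transcripts it blocks translation. Loss of Tfrc from cardiomyocytes is known to cause fatal heart failure in mice, and loss of Slc40a1 from cardiomyocytes overloads them with iron.

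Paxip1 checks the labels. Its 4 probe sets differed by -1.83 to -0.95 on the log2 scale in PTIP KO, and on each of them all PTIP KO mice lay below all PTIP+ mice. No source used here gives the deleted part of the gene, so whether these probes lie in it is unknown. Cardiomyocyte markers were present in all 6 arrays, with a mean log2 level over 9 genes of 13.31 to 13.36 in PTIP KO and 13.33 to 13.35 in PTIP+. The mouse PTIP+ 1 stood apart on the first principal component, which held 28.9% of the variance. Across the array, 86 of 45040 probe sets passed (limma adjusted p under 0.05), 56 lower and 30 higher, and 90 passed with 47 lower and 43 higher after median centring of the arrays.

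Flvcr2, Tfrc and Slc40a1 were lower by 2-fold or more in PTIP KO on their brightest probe sets. The iron importer and the iron exporter were thus both low in the same mice. The storage gene Fth1, the endosomal carrier Slc11a2, the regulators Aco1 and Ireb2, the hepcidin regulator Hfe and the transporter Flvcr1 differed by 0.34 or less on every probe set. By limma, 2 of the 23 probe sets passed (8.7%, where 0.191% of all probe sets did), 1 of Slc40a1 and the Flvcr2 probe set. Both were lower in PTIP KO, as were 0.124% of all probe sets, and none was higher, as were 0.0666%. At an unadjusted limma p under 0.05 there were 9 of 23, where 9.07% of all probe sets had such a p. The groups did not overlap, with PTIP KO lower, on 11 of the 23 (47.8%, against 6.74% of all probe sets), and with PTIP KO higher on 1 (4.35%, against 7.64%). Tfrc alone gave 6 of these 11 lower probe sets, which are repeat readings of 1 gene in the same mice. By brightest probe set, the groups did not overlap, with PTIP KO lower, for 5 of the 9 genes (6.57% of all genes). At an unadjusted limma p under 0.05, 3 of the 9 genes were lower (3.8% of all genes). Since this comparison served to choose the genes, nothing is read from these shares.

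**Figure D1:**
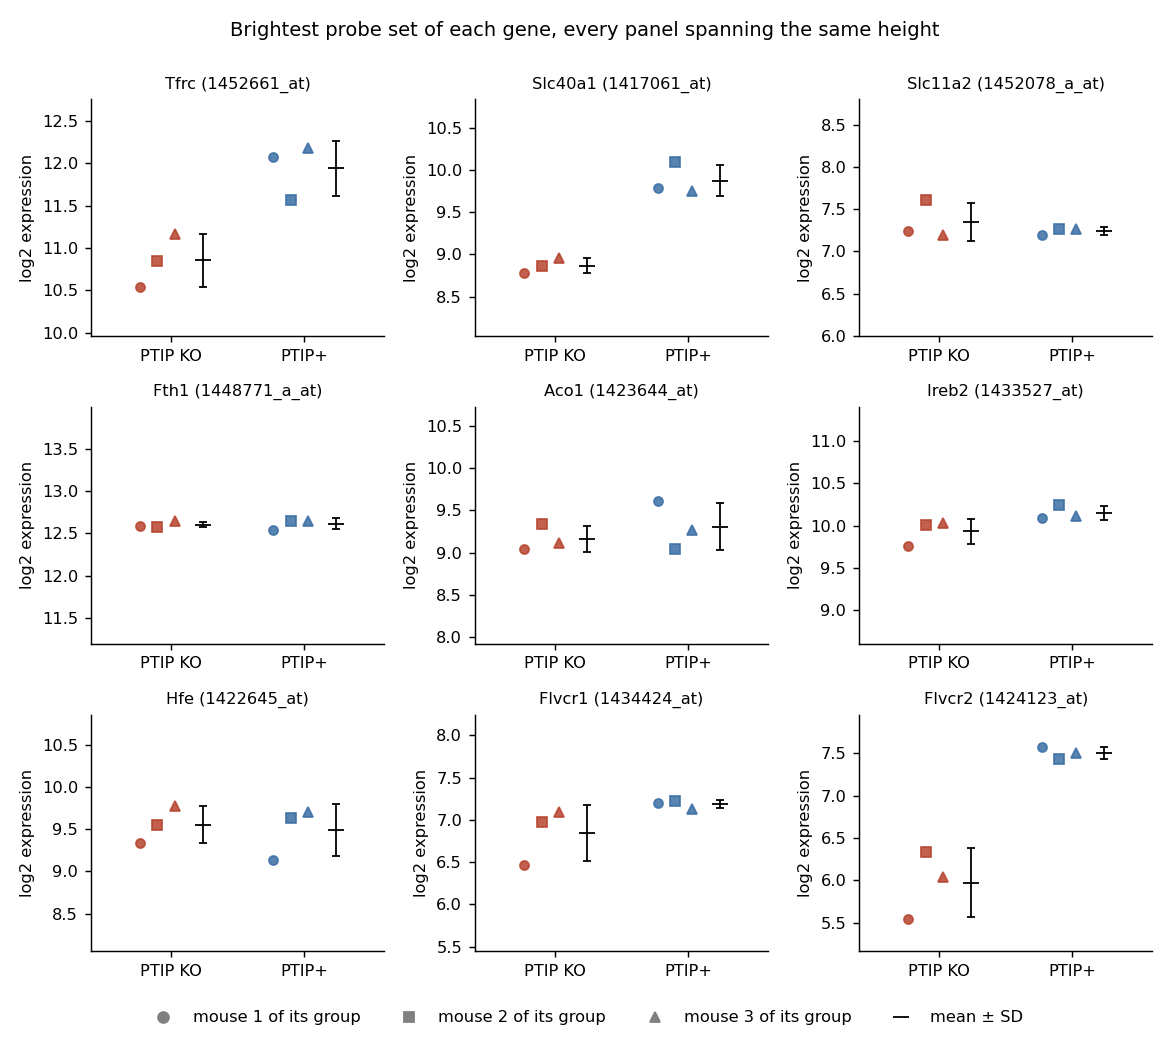
Log2 expression (y axis) of the brightest probe set of each of the 9 measured genes, with the 3 PTIP KO mice at the left (red) and the 3 PTIP+ mice at the right (blue), and the mean ± SD beside each group. The groups are far apart for Tfrc, Slc40a1 and Flvcr2, while Fth1 lies between 12.54 and 12.65 in all 6 mice.

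The promoters are shown first for the genes that were lowest, Flvcr2 and Tfrc, with Flvcr1 as the close relative of Flvcr2 that differed little. They are the 250 bases before the annotated start in RefSeq, build GRCm38.p6, 5′ to 3′ on the gene's strand, at chr12:85746289-85746538 (plus strand) for Flvcr2, chr16:32608872-32609121 (plus strand) for Tfrc and chr1:191026191-191026440 (minus strand) for Flvcr1. Tfrc has 2 annotated starts in the table, and the window of the later one is printed because it holds the motif searched. Capitals mark ACGTG on either strand, a form of the core (A or G, then CGTG) that hypoxia-inducible factors recognise. ACGTG also forms part of CACGTG, the E-box bound by Myc and USF proteins. The form GCGTG is left unmarked.
Flvcr2: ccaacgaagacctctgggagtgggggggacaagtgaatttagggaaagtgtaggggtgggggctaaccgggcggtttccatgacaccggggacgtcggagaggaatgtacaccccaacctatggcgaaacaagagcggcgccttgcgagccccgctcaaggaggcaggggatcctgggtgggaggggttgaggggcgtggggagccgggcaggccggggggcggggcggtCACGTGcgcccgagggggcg
Tfrc: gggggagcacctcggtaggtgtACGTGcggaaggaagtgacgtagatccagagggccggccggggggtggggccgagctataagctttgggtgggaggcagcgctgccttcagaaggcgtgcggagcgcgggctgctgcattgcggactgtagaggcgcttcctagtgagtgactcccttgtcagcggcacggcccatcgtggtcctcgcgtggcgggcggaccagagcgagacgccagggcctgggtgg
Flvcr1: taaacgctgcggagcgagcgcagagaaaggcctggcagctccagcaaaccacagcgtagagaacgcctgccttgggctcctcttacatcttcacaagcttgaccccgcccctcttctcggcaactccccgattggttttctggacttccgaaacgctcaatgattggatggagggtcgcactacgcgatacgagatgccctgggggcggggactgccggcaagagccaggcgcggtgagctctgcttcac

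Flvcr2 holds 1 CACGTG, from base 20 to base 15 before its start, and since that motif reads the same on both strands it counts as 2 overlapping copies of ACGTG. Tfrc holds ACGTG once, from base 228 to base 224 before the later start, and none in the 250 bases before the earlier start. Flvcr1 holds none in these letters. Of all 32851 windows of this length, 16.6% hold ACGTG and 6.02% hold CACGTG on either strand. Of the 10 genes, 7 had an entry, with 9 windows, and ACGTG occurred in none of the windows of Aco1, Fth1, Hfe and Ireb2. GCGTG was not counted, but it occurs on either strand in Flvcr2, in both Tfrc windows and in 1 of the Fth1 windows. A window without ACGTG can therefore still hold the core of hypoxia-inducible factors. Slc40a1, which was also lower in PTIP KO, had no entry and was not searched, and neither were Slc11a2 and Trf. GGGCGG, the GC box of Sp1, occurred on either strand in Flvcr2 (3 copies), the later Tfrc window (1) and Flvcr1 (2), and in 32.7% of all windows. It also occurred in Aco1 (3 copies), 1 of the Fth1 windows (3) and Ireb2 (2), genes that differed little. The GC content was 68.0% for Flvcr2, 68.0% for that Tfrc window and 60.4% for Flvcr1, against a median of 52.4% over all windows. These matches describe the sequence and do not show that a factor binds there.

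Uptake begins with Tfrc. Its brightest probe set, 1452661_at, read 10.54, 10.85 and 11.17 in the PTIP KO mice 1 to 3, against 12.08, 11.57 and 12.18 in the PTIP+ mice 1 to 3. The highest PTIP KO value lay 0.39 below the lowest PTIP+ value. The difference was -1.09 (SE 0.22, 95% interval -1.60 to -0.58), or 2.13-fold lower.

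The other 5 Tfrc probe sets had the same direction and no overlap. Tfrc probe set 1422966_a_at read 5.03, 6.24 and 5.89 in PTIP KO, against 7.28, 6.91 and 7.25 in PTIP+, a difference of -1.42 (SE 0.29). Tfrc probe set 1422967_a_at read 3.74, 4.59 and 5.17 in PTIP KO, against 6.67, 6.05 and 6.98 in PTIP+, a difference of -2.07 (SE 0.38), or 4.19-fold lower. PTIP KO 1 was the lowest of all mice on every Tfrc probe set, and PTIP+ 2 was the lowest of its group on all 6.

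The control probe sets read Tfrc at its 3′ end, middle and 5′ end. At the 3′ end Tfrc read 5.89, 6.78 and 6.55 in PTIP KO, against 7.81, 7.53 and 7.80 in PTIP+. The middle probe set read 4.77, 5.26 and 5.33 in PTIP KO, against 6.53, 5.96 and 6.72 in PTIP+. At the 5′ end it read 2.93, 3.57 and 3.55 in PTIP KO, against 4.36, 4.05 and 4.94 in PTIP+. The differences of these 3 Tfrc control probe sets were -1.31 (SE 0.23), -1.29 (SE 0.23) and -1.10 (SE 0.26), so Tfrc had similar differences on all 3 segments. The limma adjusted p of the 6 Tfrc probe sets lay between 0.118 and 0.251, and none passed.

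**Figure D2:**
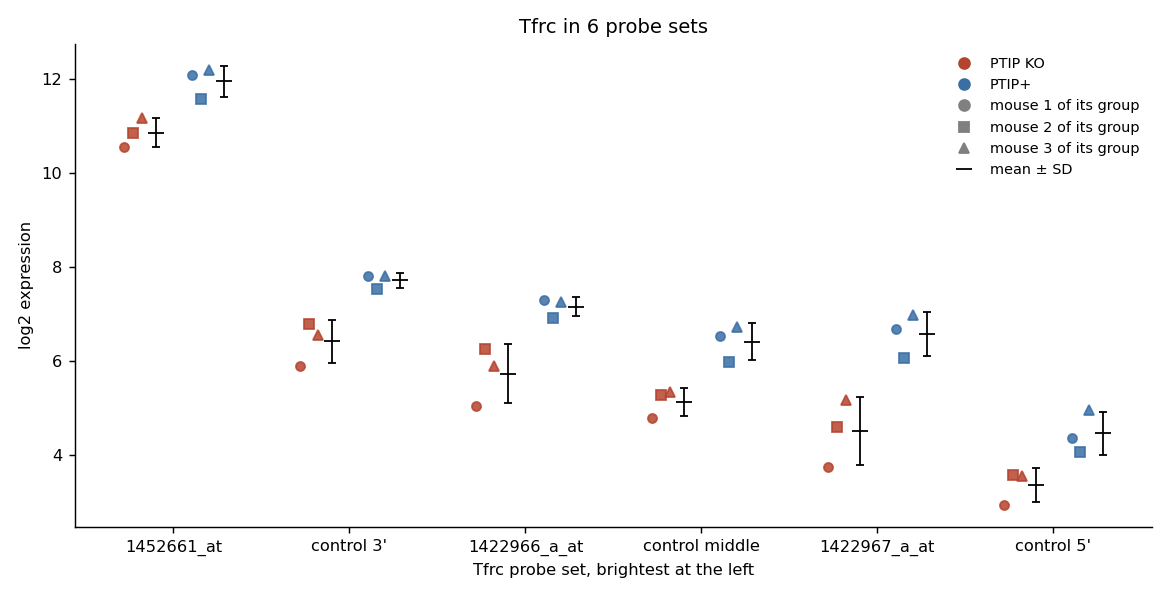
Log2 expression (y axis) of the 6 Tfrc probe sets (x axis, brightest at the left), with the PTIP KO mice in red left of the PTIP+ mice in blue and mean ± SD bars. In each probe set all PTIP KO mice lie below all PTIP+ mice, and PTIP KO 1 is the lowest.

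The 3′ signal minus the 5′ signal of the Tfrc control probe sets grows when RNA is degraded or copied incompletely. It was 2.96, 3.21 and 2.99 in PTIP KO, against 3.45, 3.48 and 2.86 in PTIP+, and the groups overlapped. The difference was -0.21 (exact two-sided permutation p = 0.4, where 3 against 3 mice cannot give a p below 0.1). The same quantity for actin averaged 1.53 ± 0.10 in PTIP KO and 1.47 ± 0.35 in PTIP+, and for Gapdh 0.92 ± 0.01 in PTIP KO and 0.91 ± 0.32 in PTIP+ (SD, n = 3 each). The RNA measures thus differed between the groups by less than the spread among PTIP+ mice. With 3 mice per group, this cannot show that RNA quality was equal. The Tfrc measure is also built from probe sets that were themselves lower in PTIP KO, with a dim 5′ end, so it is not independent of the Tfrc difference.

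Slc11a2, which moves iron out of the endosome and whose transcript has forms with an iron-responsive element of its own, did not follow Tfrc. Its brightest probe set, 1452078_a_at, read 7.24, 7.61 and 7.20 in PTIP KO, against 7.19, 7.27 and 7.26 in PTIP+. The difference was 0.11 (SE 0.14, 95% interval -0.21 to 0.43), and the groups overlapped because 2 PTIP KO mice lay within the PTIP+ range. The other 3 Slc11a2 probe sets differed by -0.20 to 0.25, each with overlap.

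Hfe, a membrane protein that binds the transferrin receptor and is mutated in hereditary hemochromatosis, read 9.34, 9.55 and 9.77 in PTIP KO, against 9.14, 9.63 and 9.70 in PTIP+ on its brightest probe set. The difference was 0.06 (SE 0.19), and the second Hfe probe set differed by 0.02 (SE 0.26). The groups overlapped on both. The 95% intervals, -0.37 to 0.50 and -0.59 to 0.63, leave room for modest changes of either sign.

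The probe set shared by Trf and Srprb, which encodes a subunit of the receptor for the signal recognition particle, read 9.18, 8.05 and 8.98 in PTIP KO, against 8.79, 9.19 and 8.88 in PTIP+. PTIP KO 2 was the lowest, and the other 5 mice lay between 8.79 and 9.19. The difference was -0.22 (SE 0.29), and it cannot be assigned to either gene.

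Storage was represented by Fth1, the ferritin heavy chain that oxidises iron as it is stored. Its brightest probe set, 1448771_a_at, read 12.59, 12.58 and 12.64 in PTIP KO, against 12.54, 12.65 and 12.65 in PTIP+. The groups overlapped, with a difference of -0.01 (SE 0.10, 95% interval -0.25 to 0.22). On the other Fth1 probe set, 1427021_s_at, all PTIP KO mice lay above all PTIP+ mice, but by a gap of only 0.02, with a difference of 0.04 (SE 0.10). Both probe sets sit near the upper end of the scale, which reached 14.3. Ferritin is controlled mainly at translation, which arrays of RNA do not measure.

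Export was represented by Slc40a1. Its brightest probe set, 1417061_at, read 8.78, 8.86 and 8.96 in PTIP KO, against 9.78, 10.09 and 9.75 in PTIP+. All PTIP KO mice lay at least 0.79 below every PTIP+ mouse, and the spread within PTIP KO was small, with an SD of 0.09. The difference was -1.01 (SE 0.13, 95% interval -1.31 to -0.70), or 2.01-fold lower, with a limma adjusted p of 0.0484. The second Slc40a1 probe set, 1448566_at, read 5.36, 5.31 and 5.51 in PTIP KO, against 6.09, 7.11 and 6.52 in PTIP+, a difference of -1.18 (SE 0.24, limma adjusted p = 0.181) that did not pass. When any 1 mouse was left out, the Slc40a1 difference stayed between -1.07 and -0.90, but the limma adjusted p was 0.0882 to 0.212 and the call was lost in each case.

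Macrophages, which recycle iron, are rich in Slc40a1, and their markers moved in the same direction. Of 12 macrophage markers, 11 were lower by sign in PTIP KO, with a median difference of -0.33, and none passed over all probe sets (smallest limma adjusted p 0.287). At an unadjusted limma p under 0.05, 5 of 12 were lower (3.8% of all genes were), and for 6 of 12 the groups did not overlap (6.57% of all genes). The list was chosen with earlier results of these data known, and its markers partly read the same cells. They are thus not 12 separate observations, and nothing is read from these shares. Mrc1, the mannose receptor of resident macrophages, differed by -0.51, Cd163, the scavenger receptor for hemoglobin, by -0.38, Adgre1, a surface receptor of mature macrophages, by -0.47 and Lyve1, a hyaluronan receptor also found on lymphatic vessels, by -0.41. The marker that was not lower was Timd4, of long-lived resident macrophages, at 0.17. The mean log2 level of the 12 markers was 7.84, 7.35 and 7.63 in PTIP KO, against 7.78, 7.98 and 7.92 in PTIP+. The groups overlapped on this mean through PTIP KO 1, the mouse with the lowest value (8.78) on the brightest Slc40a1 probe set. On the brightest probe sets of Mrc1, Cd163, Adgre1 and Lyve1 all PTIP KO mice lay below all PTIP+ mice. A dimmer Lyve1 probe set, 1453128_at, differed by -0.49 with overlapping groups. The part of these cells in the Slc40a1 difference was not tested.

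The iron regulatory proteins themselves differed little. Aco1, whose protein switches between cytosolic aconitase and an RNA-binding form according to its iron-sulfur cluster, read 9.04, 9.34 and 9.12 in PTIP KO, against 9.61, 9.05 and 9.27 in PTIP+ on its brightest probe set. The groups overlapped, with a difference of -0.14 (SE 0.17), and the other Aco1 probe sets differed by -0.11 and 0.01. Ireb2, whose protein is degraded when iron is plentiful, read 9.76, 10.01 and 10.03 in PTIP KO, against 10.09, 10.25 and 10.11 in PTIP+. The groups were apart by a gap of 0.06, and the difference of -0.21 (SE 0.12, 95% interval -0.50 to 0.07) did not pass.

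Flvcr2 had the largest difference among the brightest probe sets. It and Flvcr1 are related membrane transporters of the major facilitator family: FLVCR1 was first described as an exporter and FLVCR2 as an importer of heme, and both are also reported to carry choline. The only Flvcr2 probe set, 1424123_at, read 5.54, 6.34 and 6.04 in PTIP KO, against 7.58, 7.43 and 7.51 in PTIP+. The PTIP+ mice were nearly alike (7.50 ± 0.07) and the PTIP KO mice more spread (5.97 ± 0.41, SD, n = 3 each), with a gap of 1.09 between the groups. The difference was -1.53 (SE 0.20, 95% interval -2.00 to -1.06), or 2.89-fold lower, with a limma adjusted p of 0.0496. Leaving out any 1 mouse gave differences of -1.72 to -1.32 and limma adjusted p values of 0.0957 to 0.179, so the call was lost each time while the size changed little.

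Flvcr1 read 6.47, 6.97 and 7.09 in PTIP KO, against 7.20, 7.22 and 7.13 in PTIP+ on its brightest probe set, 1434424_at. The groups were apart by a gap of 0.04, and PTIP KO 1 was the lowest, with a difference of -0.34 (SE 0.17). Without PTIP KO 1 the Flvcr1 difference was -0.15. The other Flvcr1 probe set differed by 0.08 (SE 0.15) with overlap.

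**Figure D3:**
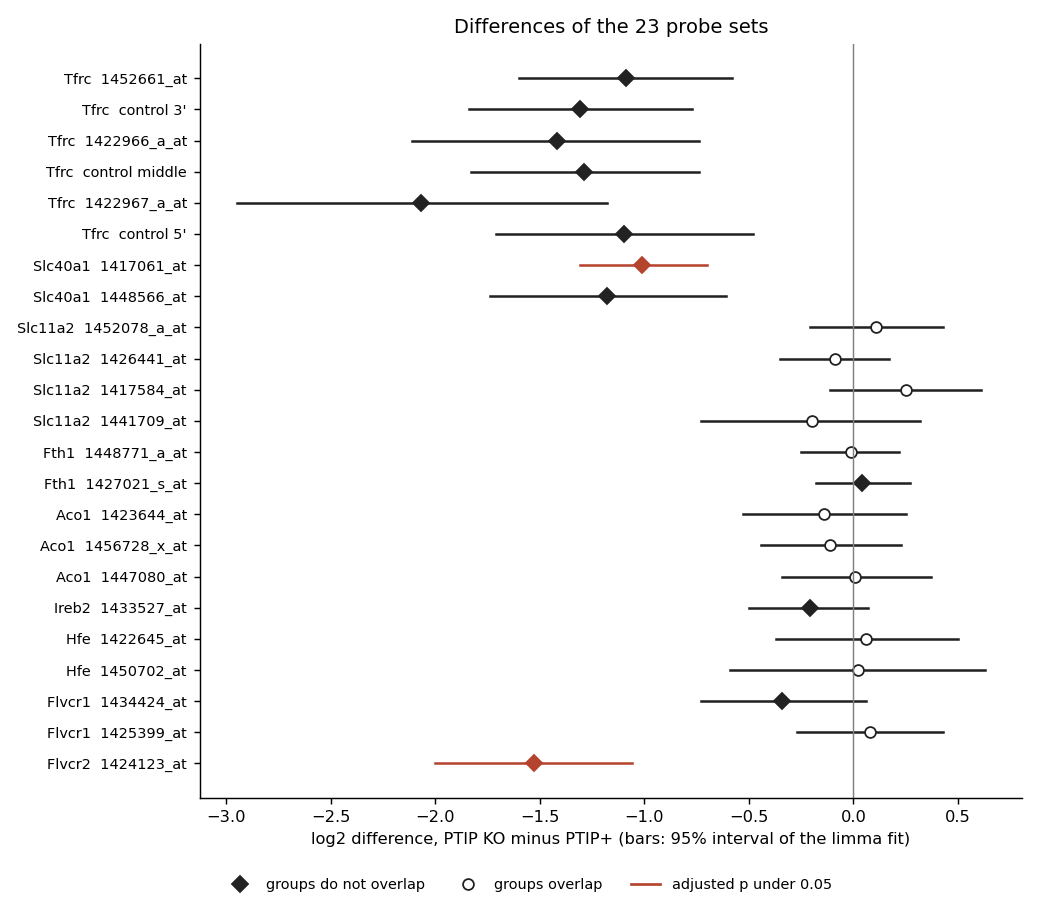
Log2 difference, PTIP KO minus PTIP+ (x axis), of each of the 23 probe sets with its 95% interval from the limma fit; diamonds mark groups that do not overlap and red marks an adjusted p under 0.05. All 9 probe sets of Tfrc, Slc40a1 and Flvcr2 lie at or below -1.01, and the other 14 lie between -0.34 and 0.25.

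PTIP KO 1 was the lowest of all 6 mice on 8 of the 9 probe sets of Tfrc, Slc40a1 and Flvcr2. Without it the difference of the brightest Tfrc probe set was -0.94 and that of Flvcr2 -1.32. PTIP KO 3 and the PTIP+ mice have neighbouring description numbers, and PTIP KO 1 and 2 have others. Over these 4 arrays alone, where the lone PTIP KO array is assumed to vary like the others, the differences were -0.77 for Tfrc, -0.92 for Slc40a1 and -1.47 for Flvcr2, and none passed.

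Around these genes, the rest of the iron and heme pathway was examined as 6 lists of 72 further genes, of which 64 were measured on probe sets of their own, each by its brightest one. None passed in either direction (limma, smallest adjusted p 0.318), where 0.286% of all genes did, and none of their 123 probe sets passed. At an unadjusted limma p under 0.05 there were 7, 3 higher (5.47% of all genes were) and 4 lower (3.8%), or 10.9% together, close to the 9.27% of all genes. Their median difference was 0.03, beside 0.02 over all 18193 genes.

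Among 12 genes of iron uptake and endosomal release, the median was -0.04, with 6 higher and 6 lower by sign. The groups did not overlap, with PTIP KO higher, for 4 of 12 (7.64% of all probe sets), and with PTIP KO lower for 0 (6.74%). Tfr2, Steap3 and Mcoln1 were among these 4, with gaps of 0.10, 0.03 and 0.03. At an unadjusted limma p under 0.05, 2 were higher (5.47% of all genes were) and 0 lower (3.8%). Tfr2, a second transferrin receptor best known from liver and erythroid cells, was dim at 4.21 ± 0.04 in PTIP KO and 3.90 ± 0.16 in PTIP+ (SD, n = 3 each). It differed by 0.31 (limma adjusted p = 0.498). Steap3, the reductase that prepares endosomal iron for Slc11a2, differed by 0.31 and Mcoln1, an endolysosomal cation channel, by 0.24. Slc39a14, a transporter of iron not bound to transferrin, differed by -0.17. None of them passed. A dimmer Mcoln1 probe set, 1416671_a_at, differed by 0.39 without overlap (limma adjusted p = 0.375). The dimmest, 1431305_at, differed by 0.23 with overlap.

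In the list of storage, iron chaperones and sensing, 7 of 9 genes were measured, with a median of 0.02. Hif1a, a hypoxia-inducible factor known to activate Tfrc, read 10.33, 10.65 and 10.58 in PTIP KO, against 11.07, 10.95 and 10.86 in PTIP+. All PTIP KO mice were below all PTIP+ mice, with a difference of -0.44 (SE 0.13, limma adjusted p = 0.341) that did not pass. Of the other Hif1a probe sets, 2 differed by -0.74 and -0.64 and the dimmest, 1431981_at, by 0.57 with overlapping groups, none passing. Ncoa4, which delivers ferritin for breakdown, differed by -0.03, Pcbp1, a chaperone that loads ferritin with iron, by 0.02 and Ftmt, mitochondrial ferritin, was near the lower end of the scale at 2.30 in PTIP KO and 2.26 in PTIP+.

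Of the export and hepcidin genes, 8 of 9 were measured, with a median of 0.07. Hamp2, a mouse copy of the hepcidin gene, was dim, at 3.46 ± 0.19 in PTIP KO and 4.31 ± 0.47 in PTIP+ (SD, n = 3 each). Its difference was -0.84 (limma adjusted p = 0.318), and because Hamp and Hamp2 are alike in sequence, their signals may mix. A dimmer Hamp2 probe set, 1456289_at, differed by -0.11 (SE 0.16) with overlapping groups. Neo1, a receptor that binds hemojuvelin, differed by -0.44 (SE 0.12, limma adjusted p = 0.332). Bmp6, the ligand that raises hepcidin in liver, differed by 0.27 and Cp, the ferroxidase ceruloplasmin that works with ferroportin, by 0.27. None of them passed.

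No gene of mitochondrial iron use or heme turnover passed. The 13 measured genes of mitochondrial iron and iron-sulfur assembly had a median of 0.11, with 8 higher and 5 lower by sign, and Iba57 and Nfs1, both of cluster assembly, differed by 0.28 and 0.23, Hscb, a cochaperone, by 0.16 and Abcb8, a mitochondrial transporter, by 0.19. The 10 measured genes of heme synthesis had a median of 0.01. Among them Cpox, coproporphyrinogen oxidase, differed by -0.30, Alas1, the rate-limiting enzyme outside red cells, by -0.32, Abcb6, a porphyrin transporter, by -0.21 and Uros, uroporphyrinogen synthase, by 0.11. A second, dimmer Uros probe set, 1440535_at, read 4.23, 4.18 and 4.15 in PTIP KO, against 3.03, 3.50 and 3.24 in PTIP+. There the groups did not overlap, and the Uros difference was 0.93 (SE 0.14, limma adjusted p = 0.0743), which did not pass. The 14 genes of heme breakdown, binding and transport had a median of 0.04. Of these, Cd163, also a macrophage marker, had the smallest p, and Hp, haptoglobin, differed by 0.44, Slc48a1, a lysosomal heme transporter, by 0.25 and Pgrmc2, a heme chaperone, by -0.22.

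**Figure D4:**
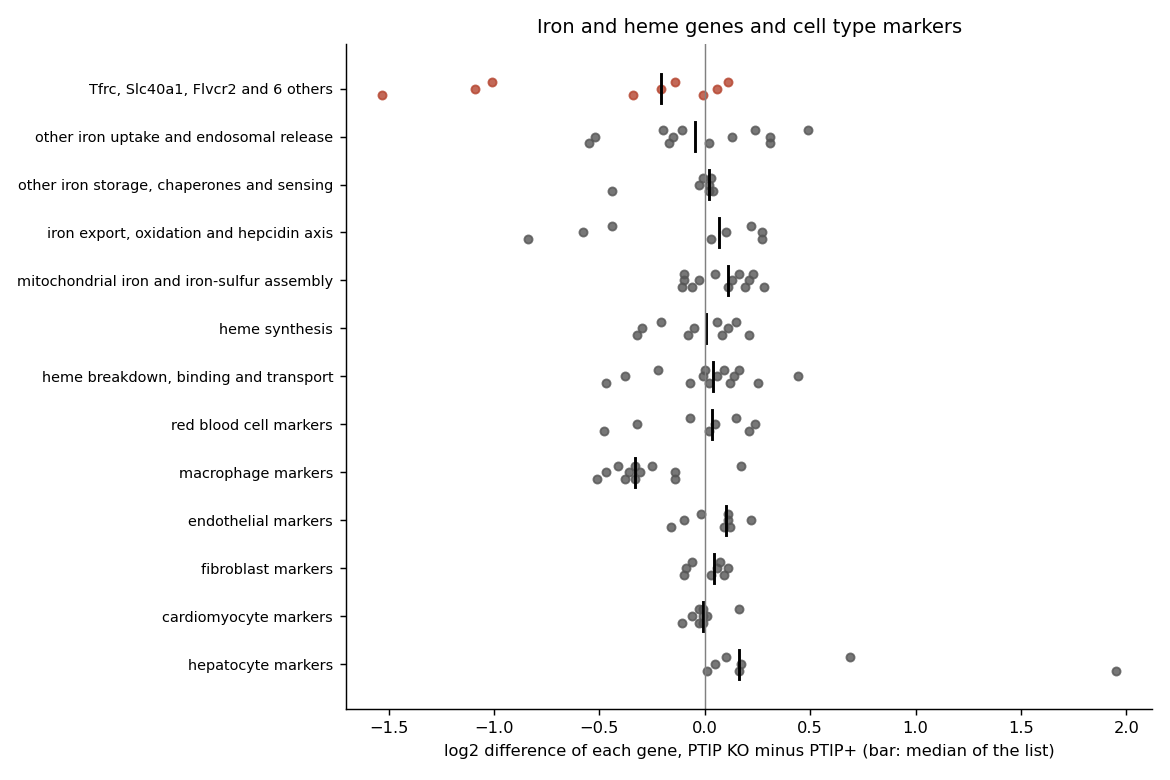
Log2 difference, PTIP KO minus PTIP+ (x axis), of each gene by its brightest probe set, by list (y axis), with a bar at the median of the list. The medians of the iron and heme lists below the top row lie between -0.04 and 0.11, the macrophage markers have a median of -0.33, and Ttr at 1.95 is the far point of the hepatocyte markers.

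Markers of the other cells that use much iron or make iron proteins were read beside these values. Immature red blood cells carry much Tfrc. Of 8 measured red blood cell markers none passed (smallest limma adjusted p 0.517), their median was 0.04, and their mean log2 level was 5.50, 5.73 and 5.59 in PTIP KO, against 5.44, 5.82 and 5.63 in PTIP+. The groups overlapped. Red cell transcripts were present in both groups. The globin gene Hbb-b2 averaged 10.71 ± 0.18 in PTIP KO and 10.65 ± 0.16 in PTIP+, and Hba-a2 averaged 10.14 ± 0.16 in PTIP KO and 9.99 ± 0.64 in PTIP+ (SD, n = 3 each). Globin genes have near-identical copies, so their signals may mix. At the lower end of the scale, Epb42 averaged 2.77 in PTIP KO and 2.75 in PTIP+, and Rhag 1.84 in PTIP KO and 1.91 in PTIP+. Hba-a1, on a dim probe set, differed by -0.32, Slc4a1 by -0.48, Klf1 by 0.24 and Alas2, the erythroid enzyme of heme synthesis, by 0.21.

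Endothelial markers (8 genes) had a median of 0.10 and fibroblast markers (8 genes) a median of 0.05, with no gene passing in either list (smallest limma adjusted p 0.743 and 0.854). Cdh5, Tek, Kdr and Tie1 differed by -0.16, 0.11, -0.10 and 0.12, and Dpt, Col1a1, Pdgfra and Lum by 0.11, -0.09, 0.09 and 0.07. Cardiomyocyte markers had a median of -0.01, with Actn2, Ryr2, Myh6 and Tnnt2 at 0.16, -0.11, -0.06 and -0.03. They averaged 12.60 to 13.91, near the upper end of the scale at 14.3, where a change may hardly show. Hepatocytes make most transferrin and hepcidin. All 7 measured hepatocyte markers were higher by sign in PTIP KO, with a median of 0.16. Their mean log2 level, which includes Ttr, was 4.68, 4.93 and 4.82 in PTIP KO, against 4.33, 4.46 and 4.30 in PTIP+, without overlap. At an unadjusted limma p under 0.05, 2 of 7 were higher (5.47% of all genes were). Only Ttr passed, at 1.95 on its brightest probe set (limma adjusted p = 0.0377), where 0.286% of all genes passed. The list was chosen with earlier results known, so nothing is read from these shares. The other 3 Ttr probe sets differed by 1.54, 1.30 and 1.56 without overlap and did not pass (limma adjusted p = 0.202, 0.251 and 0.0586). Apoa2 differed by 0.69 without overlap (limma adjusted p = 0.238) and Fgb by 0.16 with overlap. Alb, the defining gene, was near the lower end of the scale at 2.52 in PTIP KO and 2.36 in PTIP+.

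The genes whose levels over the 6 mice were most like those of Flvcr2, among 11121 genes brighter than the median probe set, were Nabp1 (Pearson r = 0.997), which encodes a single-stranded DNA binding protein, Ppp1r14c (r = 0.991), an inhibitor of protein phosphatase, and Ripor2 (r = 0.99). Nabp1 read 8.52, 9.04 and 8.82 in PTIP KO, against 9.99, 9.98 and 9.93 in PTIP+, so that it shared with Flvcr2 both the even PTIP+ values and the low PTIP KO 1. For Tfrc they were Ndufaf4 (r = 0.993), an assembly factor of respiratory complex I, Cspp1 (r = 0.984), a centrosome and cilium protein, and Slc25a36 (r = 0.984), a mitochondrial carrier of pyrimidine nucleotides. Their own differences were much smaller than that of Tfrc, at -0.22, -0.38 and -0.21. These correlations describe 6 points that fall into the groups of the study, and the genes were picked as the best of all candidates.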

How the data were processed

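Arrays of heart apex RNA came from 3 PTIP KO and 3 PTIP+ mice. The deposited values are log2 expression values that the authors made with RMA (background correction, normalization between arrays, probe set summaries), as the submitters' processing notes name it. The RMA version was not given in the sources used here. The log base was taken from their range, 1.36 to 14.3. Labelling used NuGen Ovation Biotin, per the labels' protocols. RMA hides changes in total RNA and compresses those of dim probe sets.

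The 3 Tfrc control probe sets were kept and the other 61 controls dropped, leaving 45040 probe sets. Symbols came from the platform annotation, updated through Entrez identifiers with RefSeq (GRCm38.p6); 34948 tested probe sets had 1 gene, 932 several and 9160 none listed, and 34744 of the 34948 were found in RefSeq. A gene was represented by its probe set with the highest mean over 6 arrays.

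The comparison used limma 3.58.1 under R 4.3.3 (lmFit, eBayes, PTIP KO minus PTIP+, two-sided, group as the only term), adjusted by Benjamini-Hochberg over all 45040 probe sets. The number of mice limits the precision; the median SE was 0.147. On simulated data of this size (45040 probe sets), 51% of the changes of 1 log2 unit and 88% of those of 2 were called, with 2 false calls. The simulated noise was normal and independent between probe sets, with no array standing apart as PTIP+ 1 did. These rates may therefore not hold for the real arrays. The labels number the mice, and p-values measure the spread between them. Mice with the same number did not deviate together.

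Members and lists were chosen with earlier results of these data known. Named were all members, Paxip1, up to 4 genes of each list with the smallest p, and the 3 genes most correlated with Flvcr2 and with Tfrc. Timd4, Hba-a2, Hbb-b2, Epb42 and Rhag fall outside this rule and were chosen after their values were seen. Other genes of the lists without a probe set of their own were not analysed here. Results were recomputed with limma's trend, robust and array-weight options, with 2 filters on dim values, with all control probe sets kept or all dropped, with quantile normalization or median centring added, with a replicate block, without each mouse, on 4 arrays with neighbouring description numbers, and with a gene's probe sets averaged.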

Additional observations from a re-analysis of the deposited data

How the results depend on the processing

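Flvcr2, Tfrc and Slc40a1 stayed lower in PTIP KO in all 18 alternatives, with differences of -1.72 to -1.32, -1.38 to -0.77 and -1.09 to -0.90. The calls were less firm: Flvcr2 passed in 7 of 18, Slc40a1 in 8 and Tfrc in 0, where Tfrc had limma adjusted p values of 0.0504 to 0.95. Flvcr2 kept -1.53 but did not pass with a robust prior (limma adjusted p = 0.0539), renewed quantile normalization (0.0536) or the replicate block (0.196), nor with median centring (-1.49, adjusted p = 0.0506) or the 4 arrays with neighbouring description numbers (-1.47, adjusted p = 0.75). The 2 called probe sets became 1 with quantile normalization and 0 with a robust prior, median centring, the replicate block, those 4 arrays and each mouse left out (range 0 to 0). At an unadjusted limma p under 0.05 they were 8 to 10 of 23 in these settings. Over the whole array 86 calls became 185 with a variance trend, 51 with a robust prior, 204 with array weights, 0 with the replicate block (3394 at an unadjusted limma p under 0.05), 0 with those 4 arrays (2350) and 0 to 21 with a mouse left out. The same-numbered mice had deviations that correlated at -0.151, -0.0818 and -0.0107, so they did not deviate together. These values cannot show whether mice shared a litter or a day. Under the block the Flvcr2 difference stayed at -1.53 while its call was lost. The count of other iron genes was 0 in all 18 alternatives. The whole array had 0 calls under the block, on those 4 arrays, and without PTIP KO 1 or PTIP+ 2. In these settings a count of 0 was fixed in advance and says nothing about iron genes. The Tfrc 3′ minus 5′ difference, -0.21, lay between -0.41 and -0.10 with a mouse left out and was -0.21 in pairs. Of the genes that did not pass, Ireb2 and Flvcr1 kept their sign in all 18 alternatives, while Fth1 kept it in 11, Slc11a2 and Hfe in 16 each and Aco1 in 17.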
